A study of Mus musculus with 9 samples.

Results

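The insulin-like growth factor (IGF) axis was examined in MC3T3-E1 cells through 10 genes taken by symbol from the platform annotation, out of 19937 genes tested. They were the ligands Igf1 and Igf2, the receptors Igf1r and Igf2r, and the binding protein genes Igfbp2, Igfbp3, Igfbp4, Igfbp5, Igfbp6 and Igfbp7. All 10 were found, each with 1 probe set, so no choice between probe sets was needed. MC3T3-E1 subclone 4 is a clonal preosteoblast line from mouse calvaria. Lentivirus delivered either a scrambled hairpin (Scr) or a hairpin against the osteoblast transcription factor Runx2 (shRunx2), and cells positive for its green fluorescent protein were sorted. Affymetrix Mouse Gene ST arrays were hybridized with RNA of Scr cells before differentiation (day 0), of Scr cells after 9 days with ascorbic acid and beta-glycerophosphate (day 9), and of shRunx2 cells at day 9. Each group held 3 arrays, described by the labels as biological replicates. All groups carried a lentiviral hairpin, 1 hairpin against Runx2 was used, and there was no shRunx2 group at day 0. Runx2 itself is not analysed here, and the depth of the knockdown is therefore not stated.

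IGF1 and IGF2 are secreted peptides that act on osteoblasts through the tyrosine kinase receptor IGF1R, which promotes proliferation, survival and matrix production. IGF2R, also the mannose 6-phosphate receptor, carries IGF2 to lysosomes for breakdown and does not signal as a kinase. The binding proteins hold IGFs in the medium and the bone matrix, where they block or prolong ligand action, and proteases such as PAPP-A release the ligand by cutting them. Bone matrix is a large store of IGFs and of IGFBP5.

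Values are RMA log2 expression as deposited, so a difference of 1 is a doubling of signal, and levels of different genes cannot be set against each other. Genes rose or fell where the adjusted p from limma was under 0.05, with the model fitted on all 19937 genes and 9 arrays with Benjamini-Hochberg adjustment. Errors are the standard deviation (SD) over 3 arrays for group means and the standard error (SE) of the model for log2 changes. Arrays of a group correlated at 0.998 or more across genes. Of 8 osteoblast markers analysed here, 5 rose and none fell with differentiation of Scr cells. The mean log2 level of these markers went from between 10.12 and 10.21 to between 11.27 and 11.34, with shRunx2 arrays between 10.78 and 10.81. Markers of other cell types, 8 measured for each, also moved with differentiation. For smooth muscle 2 rose and 2 fell, for macrophages 2 rose and 1 fell, and for skeletal muscle 1 fell. For adipocytes and endothelium 1 rose each, and none passed for chondrocytes. The largest of these changes were in Synpo2 (-1.09) and Lyz2 (0.80). Since the table holds no detection calls and levels of different genes are not comparable, whether markers of other cell types were absent could not be judged. In such bulk RNA, fewer cells that express a gene and less RNA per cell cannot be told apart.

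Scr cells at day 9 were first compared with Scr cells at day 0 to follow the axis through differentiation. Igf2 and Igfbp5 rose most, by 7.90-fold and 5.54-fold, Igfbp4 and Igfbp2 rose by 1.78-fold and 1.61-fold, and Igf1r fell by 1.69-fold. Igfbp6, Igfbp7 and Igf2r fell by smaller amounts, while Igf1 and Igfbp3 did not pass. Thus 8 of 10 members were called, 4 higher and 4 lower, where 31.6% of all genes were called in that comparison (14.5% higher and 17.1% lower). With a change of at least 1.5-fold also required, 5 of 10 were called against 5.14% of all genes. These were 4 higher (2.89% of all genes) and 1 lower (2.25%). In 8 of 10 the groups did not overlap, with each array of one above each array of the other, against 40.2% of all genes. The median absolute log2 change was 0.49 over the 10 members and 0.077 over all genes, and the median signed changes were -0.045 and -0.016. All genes include many of dim signal. By mean signal over 9 arrays, Igfbp3 lay at percentile 35 of all genes and the other members between 57 and 99. Those means include the day 9 arrays. At day 0, Igf2 (8.54 to 8.97) and Igfbp5 (8.48 to 8.60) lay near the array medians over all probe sets, which ran from 8.42 to 8.51. How far dim signal at day 0 affects their fold changes was not tested. Shares among genes of like signal were not computed. Members and the lists below were chosen with earlier results of these data known, so such contrasts describe them and are not tests.

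Among the ligands, Igf2 moved and Igf1 did not. The Igf2 level was 8.54, 8.97 and 8.79 on the day 0 arrays and 11.82, 11.76 and 11.66 on the day 9 arrays of Scr cells. No array of one day came near those of the other, and the log2 change of 2.98 ± 0.087 (SE, adjusted p = 4.3e-10) was the tenth largest increase among all genes, at rank 10 of 19937. Igf2 encodes the IGF of fetal growth and is expressed from the paternal allele. In contrast, the Igf1 level was 12.09, 12.17 and 12.10 at day 0 and 12.10, 12.07 and 12.07 at day 9, with overlapping arrays. Its log2 change was -0.040 ± 0.035 (adjusted p = 0.457), with a 95% confidence interval from -0.12 to 0.036.

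The receptors were both lower at day 9. The Igf1r level was 11.31, 11.32 and 11.21 on the day 0 arrays and 10.61, 10.53 and 10.43 on the day 9 arrays of Scr cells. The groups were well apart, and the log2 change was -0.76 ± 0.050 (adjusted p = 3.95e-07). Igf2r was between 11.35 and 11.44 at day 0 and between 11.20 and 11.29 at day 9. Its change of -0.12 ± 0.041 lay close to the threshold (adjusted p = 0.0375) and no longer passed without Scr day 0 replicate 1 (0.124) or 2 (0.0513), without Scr day 9 replicate 2 (0.0689) or 3 (0.133), or without shRunx2 replicate 1 (0.0509), 2 (0.0511) or 3 (0.0517). It was also lost with quantile normalization of the gene table (0.075), with every probe set tested (0.067) and when just the Scr arrays were fitted (0.0726). Over 18 alternatives its adjusted p ran from 0.0152 to 0.133.

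**Figure D1:**
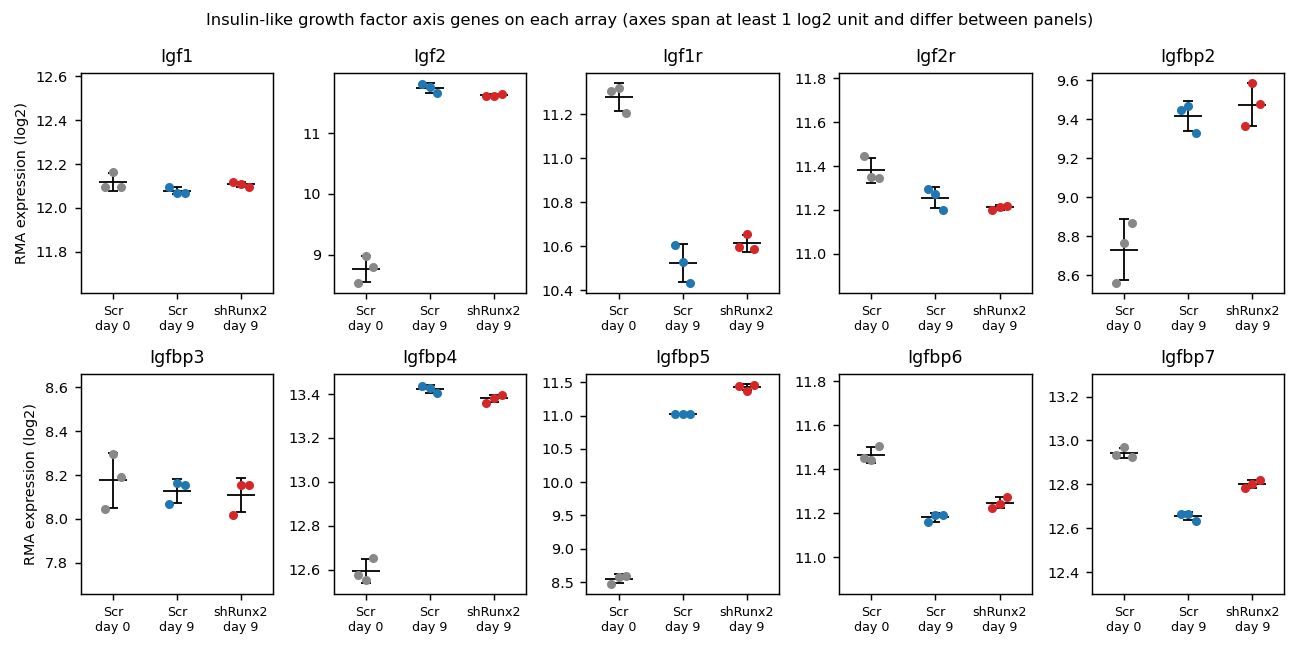
RMA log2 expression (vertical axis) of the 10 IGF axis genes in the 3 groups, Scr at day 0, Scr at day 9 and shRunx2 at day 9 (horizontal axis), each array drawn as 1 point and each mean and SD as black bars. Igf2 and Igfbp5 step up by over 2 log2 units between day 0 and day 9, and Igfbp5 lies higher again in shRunx2 cells, between 11.38 and 11.46, than in Scr cells at 11.02.

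The binding protein genes went in both directions. Igfbp5, which encodes a protein that binds to extracellular matrix and to hydroxyapatite, had levels of 8.48, 8.58 and 8.60 on the day 0 arrays and 11.02 on each of the 3 Scr day 9 arrays. The groups were far apart, with a log2 change of 2.47 ± 0.042 (adjusted p = 8.94e-12), at rank 28 of 19937 among increases. Scr day 9 replicates 2 and 3 were listed at the same Igfbp5 value, which these 2 arrays also did in 7.57% of all genes, where other pairs within a group shared values in 4.42% to 5.96%. The SD of Igfbp5 in that group was 0.0013, while the SE above comes from limma's moderated variance over all 3 groups.

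Igfbp4, whose product binds IGFs and mostly inhibits their action until PAPP-A cuts it, rose from 12.57, 12.55 and 12.65 at day 0 to 13.44, 13.43 and 13.41 at day 9. The change was 0.83 ± 0.037 (adjusted p = 1.49e-08) with no overlap between arrays. Igfbp2, whose product carries an integrin-binding motif, had day 0 levels of 8.56, 8.77 and 8.87 and day 9 levels of 9.45, 9.47 and 9.33. It was more spread than Igfbp4 at both days but the groups did not overlap (0.69 ± 0.078, adjusted p = 3.41e-05).

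Igfbp6, which encodes the binding protein that prefers IGF2 over IGF1, went from 11.45, 11.44 and 11.51 to 11.16, 11.19 and 11.19 (-0.29 ± 0.035, adjusted p = 6.51e-05). Igfbp7, which encodes a secreted protein of low affinity for IGFs, went from 12.93, 12.97 and 12.92 to 12.67, 12.67 and 12.63 (-0.29 ± 0.034, adjusted p = 4.15e-05). Both fell by 1.22-fold without overlap between arrays. Igfbp3, the main IGF carrier of blood, was between 8.05 and 8.30 at day 0 and between 8.07 and 8.16 at day 9. Its groups overlapped, and its change of -0.049 ± 0.063 did not pass (adjusted p = 0.64, interval -0.19 to 0.090).

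Next, shRunx2 cells were compared with Scr cells at day 9 to find which members differ in cells with the Runx2 hairpin. With 1 hairpin, loss of Runx2 and other effects of that hairpin cannot be told apart. Igfbp5 rose by a further 1.33-fold and Igfbp7 by 1.11-fold in shRunx2 cells, and no member fell. This was 2 of 10 members called, where 7.39% of all genes were called in that comparison (2.73% higher and 4.66% lower). None of the 10 reached 1.5-fold, against 0.592% of all genes (0.396% higher and 0.196% lower). The groups did not overlap in 5 of 10 members, against 23.7% of all genes, and the median absolute log2 change was 0.063 over the members and 0.051 over all genes. The median signed changes were 0.045 and -0.0041. Beside these counts, 4 of 8 osteoblast markers analysed here fell and none rose in shRunx2 cells. Phex (-1.94), Ibsp (-1.12), Alpl (-0.75) and Sp7 (-0.21) fell, while Col1a1, Col1a2, Sparc and Dmp1 did not pass. Phex and Ibsp also stand in the study's list of genes lowered by the hairpin, drawn from these same arrays, so their calls are not independent evidence. Of 8 markers measured for each other cell type, 1 rose and 2 fell for smooth muscle (Synpo2 by 0.37, Tagln -0.17, Smtn -0.16), 1 rose and 1 fell for macrophages (Lyz2 by 0.42, Fcer1g -0.27), 1 fell for endothelium (Flt1, -0.22), 1 rose for chondrocytes (Sox9, 0.20) and none passed for adipocytes or skeletal muscle. The mean log2 level ran from 9.92 to 9.94 on Scr day 9 and 9.97 to 9.99 on shRunx2 arrays for smooth muscle, and from 7.95 to 7.96 and 7.97 to 8.01 for macrophages. For endothelium it ran from 7.97 to 8.05 and 8.02 to 8.04, for chondrocytes from 8.67 to 8.82 and 8.74 to 8.78, for adipocytes from 7.76 to 7.80 and 7.79 to 7.81, and for skeletal muscle from 8.37 to 8.47 and 8.50 to 8.50. The part of these markers in the changes of the members was not tested. Both this comparison and the one before it use the Scr day 9 arrays.

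The Igfbp5 level was 11.45, 11.38 and 11.46 on the shRunx2 arrays, all above the 11.02 of the 3 Scr arrays. The log2 change was 0.41 ± 0.042 (adjusted p = 0.000124), at rank 151 of 19937 among increases, and it passed in all 18 alternatives (adjusted p between 1.48e-05 and 0.00172). The Igfbp7 level was 12.78, 12.80 and 12.82 in shRunx2 cells and 12.67, 12.67 and 12.63 in Scr cells. The arrays did not overlap and the change was 0.15 ± 0.034 (adjusted p = 0.0229). Igfbp7 no longer passed when every probe set was tested (0.0502), nor without shRunx2 replicate 1 (0.0516), 2 (0.0615) or 3 (0.077), nor without Scr day 9 replicate 2 (0.0726) or 3 (0.0707). Over 18 alternatives its adjusted p ran from 0.00291 to 0.077.

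The ligands and receptors did not pass in shRunx2 cells. The Igf2 level was 11.62, 11.62 and 11.65 on the shRunx2 arrays, just below the lowest Scr array at day 9 (11.66), and its log2 change was -0.12 ± 0.087 (adjusted p = 0.524, 95% confidence interval -0.31 to 0.073). That SE draws on all 3 groups, and the SD of Igf2 was 0.22 at day 0, against 0.077 in Scr and 0.018 in shRunx2 cells at day 9. With only the 2 groups compared in the limma fit, the SE was 0.044 and the change still did not pass (adjusted p = 0.196). For Igf1 the change was 0.030 ± 0.035 (interval -0.046 to 0.11), with shRunx2 arrays between 12.10 and 12.12. The Igf1r level was 10.60, 10.66 and 10.59 on the shRunx2 arrays, overlapping the Scr arrays, and its change was 0.090 ± 0.050 (adjusted p = 0.378, interval -0.021 to 0.20). Igf2r was between 11.20 and 11.22, with a change of -0.045 ± 0.041 (interval -0.13 to 0.044). These intervals leave room for small differences in either direction, and none extends to a change of 1.5-fold.

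Of the other binding protein genes, Igfbp6 was between 11.22 and 11.27 in shRunx2 cells, with all 3 arrays above those of Scr cells, and did not pass (0.066 ± 0.035, adjusted p = 0.352). Igfbp4 was between 13.36 and 13.40, with all 3 arrays below those of Scr cells, and did not pass (-0.044 ± 0.037, adjusted p = 0.594). Groups that do not overlap by so little are common on these arrays, as the 23.7% of all genes above shows. Igfbp2 (0.060 ± 0.078, interval -0.11 to 0.23) and Igfbp3 (-0.020 ± 0.063, interval -0.16 to 0.12) overlapped between groups and did not pass.

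**Figure D2:**
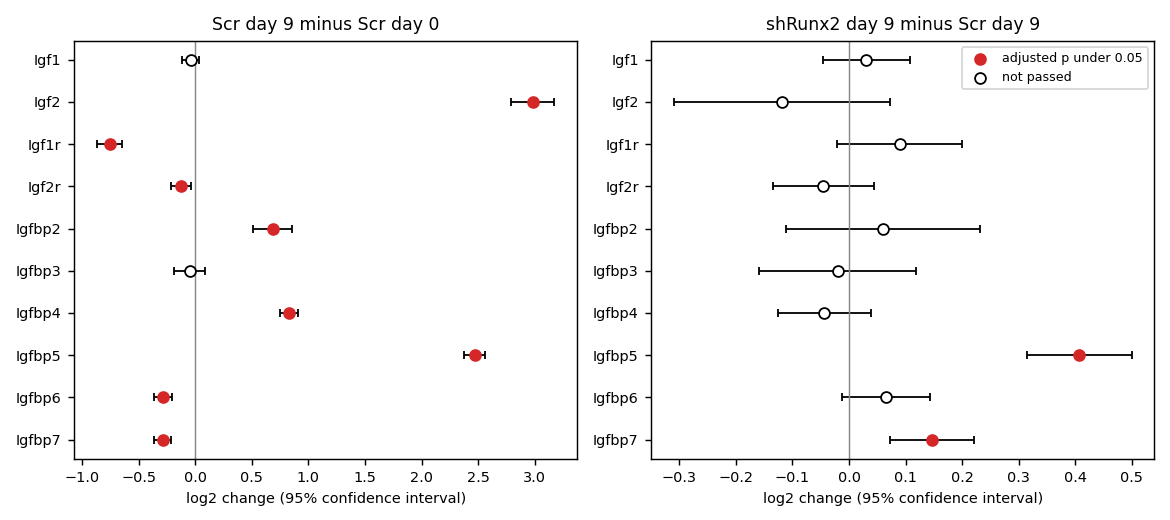
Log2 changes (horizontal axis, with 95% confidence intervals) of the 10 genes (vertical axis) for Scr day 9 minus Scr day 0 (left) and shRunx2 day 9 minus Scr day 9 (right), where filled points passed an adjusted p under 0.05. The horizontal scales differ: changes on the left run from -0.76 (Igf1r) to 2.98 (Igf2), and those on the right from -0.12 (Igf2) to 0.41 (Igfbp5).

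Set against Scr cells at day 0, shRunx2 cells at day 9 also had 8 of 10 members called, 4 higher and 4 lower, where 34.2% of all genes were called (13.8% higher and 20.4% lower). This comparison shares its arrays with both others and is given only for the members' own values. Igfbp5 was 7.34-fold and Igf2 7.28-fold higher, Igfbp4 1.72-fold and Igfbp2 1.68-fold higher, and Igf1r 1.59-fold lower (adjusted p between 2.46e-12 and 1.49e-05). Igfbp6 (1.16-fold), Igf2r (1.12-fold) and Igfbp7 (1.10-fold) were lower by less, and Igf1 (-0.010 ± 0.035) and Igfbp3 (-0.069 ± 0.063) did not pass. At 1.5-fold or more, 5 of 10 members were called against 5.7% of all genes, 4 higher (2.91% of all genes) and 1 lower (2.79%). The groups did not overlap in 8 of 10 members and in 42.3% of all genes.

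The order of the 3 groups thus differed between genes. For Igfbp5 it was Scr day 0, Scr day 9 and shRunx2 day 9 from low to high, with every step passing. For Igfbp7 it was Scr day 9, shRunx2 day 9 and Scr day 0, with shRunx2 cells between the Scr groups (mean 12.80 between 12.66 and 12.94). For Igf2, Igfbp2, Igfbp4, Igf1r, Igf2r and Igfbp6 both day 9 groups lay on the same side of day 0 and were not shown to differ from each other. For Igf1 and Igfbp3 no pair of groups passed.

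The starts of transcription were examined in RefSeq windows of GRCm38.p6 that hold 250 bases before and 50 after each start. All 10 genes were matched, with 14 windows in all, 4 of them for Igf2. The core of the Runx motif, TGTGGT or its complement ACCACA, was found in 1 of the 14 windows, that of Igfbp3, where 16.8% of all 32851 windows held it on either strand. The core element TATAAA was found on the coding strand in 1 of 14, that of Igfbp4, where 8.32% of all windows held it. These letters were not in the window of Igfbp5, and their presence or absence says nothing of binding elsewhere. The window of Igfbp5 is shown because it had the largest response to the hairpin among the members, and those of Igfbp4 and Igfbp3 because they held a match, given in capitals. They lie at chr1:72874816-72875115 (minus strand), chr11:99040994-99041293 (plus strand) and chr11:7213874-7214173 (minus strand).
Igfbp5: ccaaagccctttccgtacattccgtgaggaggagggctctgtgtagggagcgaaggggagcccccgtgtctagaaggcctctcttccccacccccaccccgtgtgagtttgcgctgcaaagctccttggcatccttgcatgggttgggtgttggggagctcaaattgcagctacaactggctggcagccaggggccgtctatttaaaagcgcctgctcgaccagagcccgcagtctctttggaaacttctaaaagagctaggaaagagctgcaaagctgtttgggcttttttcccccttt
Igfbp4: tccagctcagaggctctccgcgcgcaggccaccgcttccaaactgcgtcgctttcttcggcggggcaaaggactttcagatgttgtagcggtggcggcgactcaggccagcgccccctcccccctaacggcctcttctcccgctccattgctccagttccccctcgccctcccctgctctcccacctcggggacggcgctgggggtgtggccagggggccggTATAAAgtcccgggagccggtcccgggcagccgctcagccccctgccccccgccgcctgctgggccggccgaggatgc
Igfbp3: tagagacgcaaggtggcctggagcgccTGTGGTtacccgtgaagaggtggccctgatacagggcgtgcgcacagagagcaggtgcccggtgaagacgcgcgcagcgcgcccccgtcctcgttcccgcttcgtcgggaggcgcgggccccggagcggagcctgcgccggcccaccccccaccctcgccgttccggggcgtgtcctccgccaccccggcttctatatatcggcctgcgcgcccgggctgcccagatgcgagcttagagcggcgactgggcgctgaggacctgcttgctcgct
The Runx core of Igfbp3 starts at position -223 from the transcription start, and Igfbp3 passed in no comparison. GC content ranged from 49.7% (Igfbp6 and 1 window of Igf2) to 76.0% (Igf1r), with 56.3% for Igfbp5 and a median of 52.7% over all windows.

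Proteases and other extracellular modulators of binding proteins were followed as a group of 18 genes, all measured. The group also held Igfbp1 and Igfbpl1, which passed in neither comparison below. At day 9 in Scr cells 8 rose, 3 fell and 7 did not pass, where 31.6% of all genes were called (14.5% higher and 17.1% lower), with a median absolute log2 change of 0.28 against 0.077 over all genes. In shRunx2 cells against Scr cells at day 9, 3 fell, none rose and 15 did not pass, where 7.39% of all genes were called (2.73% higher and 4.66% lower; median absolute change 0.11 against 0.051). The absence of rises depended on the setting, with 3 genes rising under quantile normalization or array weights, 2 with a variance trend, and 1 with the filter on dim genes or without Scr day 0 replicate 3, while 5 fell with array weights or the trend. The largest falls were in Mmp13, a collagenase (-1.11 ± 0.060), and Htra1, a secreted serine protease that cuts IGFBP5 (-0.74 ± 0.035, adjusted p = 5.1e-07), followed by Esm1, a proteoglycan gene (-0.50 ± 0.059, adjusted p = 0.000363). All 3, like Igfbp5, stand in a gene list that the study drew from these same arrays, so their calls are not independent evidence of direction.

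Htra1 moved in both comparisons. Its level was 10.66, 10.63 and 10.60 in Scr cells at day 0, between 11.98 and 12.01 in Scr cells at day 9, and 11.28, 11.22 and 11.27 in shRunx2 cells. The 3 groups did not overlap, with shRunx2 cells between the Scr groups, 2.58-fold being the rise in Scr cells (1.36 ± 0.035, adjusted p = 1.75e-10) and 1.67-fold the fall in shRunx2 cells. Pappa, which encodes the protease PAPP-A that cuts IGFBP4, fell by 1.83-fold in Scr cells, from 10.76, 10.83 and 10.65 to 9.96, 9.85 and 9.82 (-0.87 ± 0.054, adjusted p = 2.34e-07). It was between 9.88 and 9.97 in shRunx2 cells and did not pass there (0.038 ± 0.054, adjusted p = 0.77). Pappa2, of the same list, went the other way and rose 1.19-fold in Scr cells (0.25 ± 0.037, adjusted p = 0.000208). In shRunx2 cells Pappa2 did not pass (0.11 ± 0.037, adjusted p = 0.0966). Among the other genes that moved most with differentiation, the plasminogen activators parted, Plat rising 2.19-fold and Plau falling 3.00-fold, and Mmp13 rose 7.76-fold.

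Downstream of the receptors, 26 of 28 listed genes of receptor adaptors and signalling were analysed here. At day 9 in Scr cells 7 rose, 6 fell and 13 did not pass, against 31.6% of all genes called (median absolute log2 change 0.15 against 0.077). Socs2, a feedback inhibitor of growth hormone signalling, rose 4.64-fold (2.21 ± 0.067, adjusted p = 6.19e-10), from 10.30, 10.17 and 9.97 to 12.40, 12.34 and 12.34. Pik3r3, a regulatory subunit of phosphoinositide 3-kinase, rose 2.00-fold (1.00 ± 0.041), whereas the catalytic subunit gene Pik3cb fell 2.28-fold (-1.19 ± 0.083) and Irs2, which encodes a docking protein of the insulin and IGF1 receptors, fell 1.59-fold (-0.67 ± 0.040). In all 4 the arrays of the days did not overlap. Irs1, of the same list, went the other way from Irs2 and rose 1.49-fold (0.58 ± 0.049, adjusted p = 3.26e-06).

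In shRunx2 cells 1 of these 26 genes rose, 5 fell and 20 did not pass, against 7.39% of all genes called (2.73% higher and 4.66% lower; median absolute log2 change 0.094 against 0.051). Pik3r3 rose by 0.25 ± 0.041 (adjusted p = 0.00359). The adaptor gene Grb14 (-0.25 ± 0.041, adjusted p = 0.00342), the phosphatase gene Ptpn1 (-0.19 ± 0.039, adjusted p = 0.0107) and the catalytic subunit gene Pik3ca (-0.22 ± 0.045, adjusted p = 0.0121) fell, all by less than 1.5-fold. The call of Pik3ca was lost without shRunx2 replicate 3 (0.0528). Leaving out Scr day 9 replicate 1 or 2, or any 1 of the shRunx2 arrays, gave 3 genes that fell, as did testing every probe set or fitting just the groups compared, and leaving out Scr day 9 replicate 1 gave 3 that rose. The number that rose was 4 with the filter on dim genes, a variance trend, array weights or quantile normalization, the last giving 4 that rose and 4 that fell, so the balance of rises and falls depended on the setting.

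Of the genes listed around Igf2, 6 of 9 were analysed here. The rest are not counted below, which does not mean that the arrays lack them. At day 9 in Scr cells 1 rose, 2 fell and 3 did not pass (31.6% of all genes called; median absolute log2 change 0.37 against 0.077). In shRunx2 cells 1 fell and 5 did not pass (7.39% of all genes called; 0.049 against 0.051). The Igf2 mRNA-binding protein genes Igf2bp1 and Igf2bp3 fell in Scr cells by 1.94-fold (-0.95 ± 0.049, adjusted p = 4.9e-08) and 1.59-fold (-0.67 ± 0.065, adjusted p = 9.41e-06). The Igf2bp1 level was 10.70, 10.53 and 10.56 at day 0 and 9.71, 9.63 and 9.59 at day 9. In shRunx2 cells it was between 9.69 and 9.75, and neither gene passed against Scr cells of the same day (0.074 ± 0.049 and 0.0095 ± 0.065). The imprinted zinc finger gene Plagl1 rose 2.62-fold in Scr cells, from 9.10, 8.98 and 9.19 to 10.61, 10.33 and 10.48 (1.39 ± 0.080, adjusted p = 1.25e-07). It was lower in shRunx2 cells, at 10.21, 9.96 and 10.12 (-0.38 ± 0.080, adjusted p = 0.0151). That fall did not pass when every probe set was tested (0.0735), nor without shRunx2 replicate 2 (0.0633), nor without Scr day 9 replicate 1 (0.0638) or 3 (0.0503). Its adjusted p spanned 0.001 to 0.0735 over 18 alternatives.

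Hormone receptors and transcriptional regulators linked to Igf and Igfbp genes made a list of 12, all measured. All 12 were called at day 9 in Scr cells, 6 higher and 6 lower, against 31.6% of all genes (median absolute log2 change 0.42 against 0.077). Since the list was chosen with earlier results of these data known, this contrast is not a test of it. The growth hormone receptor gene Ghr rose 2.32-fold (1.21 ± 0.044) and the glucocorticoid receptor gene Nr3c1 1.63-fold (0.71 ± 0.043), while the vitamin D receptor gene Vdr fell 1.73-fold (-0.79 ± 0.033) and the transcription factor gene Cebpd 2.16-fold (-1.11 ± 0.050). In shRunx2 cells 2 of the 12 fell, 1 rose and 9 did not pass, against 7.39% of all genes called (median absolute log2 change 0.11 against 0.051). The number that rose was 3 with array weights, 2 with quantile normalization or the filter on dim genes, and as low as 0 in others. The parathyroid hormone receptor gene Pth1r (-0.42 ± 0.047, adjusted p = 0.000213) and Vdr (-0.28 ± 0.033, adjusted p = 0.000265) fell. Tsc22d3, a glucocorticoid-induced gene, rose by 0.15 ± 0.041 (adjusted p = 0.0464), a call that was kept in 7 of 18 alternatives (0.00574 to 0.179) and lost without any 1 of 7 arrays, namely Scr day 0 replicates 1 and 2, Scr day 9 replicates 2 and 3 and the 3 shRunx2 replicates.

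**Figure D3:**
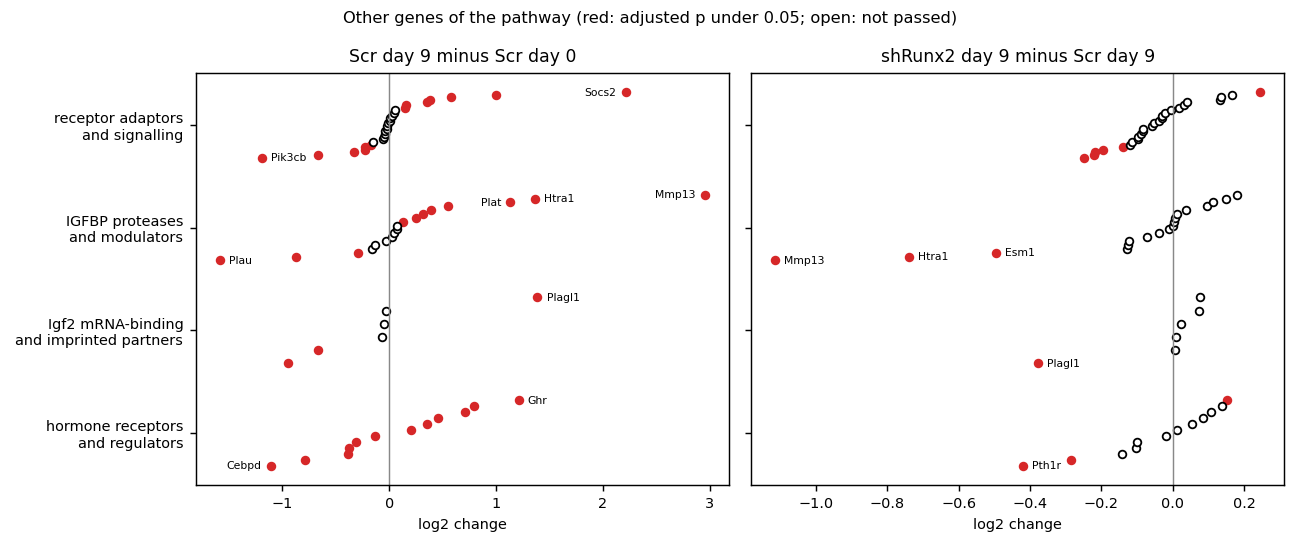
Log2 changes (horizontal axis) of the 62 other measured pathway genes in 4 groups (vertical axis), for Scr day 9 minus Scr day 0 (left) and shRunx2 day 9 minus Scr day 9 (right), with 1 point per gene, ordered within a group by its change. Red points passed an adjusted p under 0.05, and Mmp13 and Htra1 lie furthest from 0 among the genes that fell in shRunx2 cells, at -1.11 and -0.74.

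Genes with the most similar pattern were found by the root mean square difference between gene-centred log2 values over the 9 arrays. All genes named below for Igf2 and Igfbp5 share a step from day 0 to day 9. Igf2 was closest to Cmbl, an esterase-like hydrolase gene (0.13, log2 change 2.95 at day 9 in Scr cells), Mirlet7c-1 (0.17, 2.92) and Gbp8, a gene of the interferon-inducible GTPases (0.18, 2.72). Igfbp5 was closest to S100b, which encodes a calcium-binding protein (0.11, 2.68), Gbp8 (0.16, 2.72) and Aspn, which encodes the matrix proteoglycan asporin (0.19, 2.32). Of these, S100b was also higher in shRunx2 cells than in Scr cells at day 9, at 11.57, 11.65 and 11.62 against 11.42, 11.33 and 11.35 (0.25 ± 0.039, adjusted p = 0.00246). The genes were picked by closeness over all 9 arrays, so this likeness to Igfbp5 is favoured by the choice and is not separate evidence. The closest to Igf1, which was flat, were Olfr799 (0.012), Rccd1 (0.014) and Snap25 (0.014). Closeness to a flat gene picks out other flat genes and does not show a shared response. The Mirlet7c-1 probe set is named for a microRNA gene of the let-7 family, and whether it measured the precursor or a longer transcript is not known. The mature let-7c-5p listed for that gene by RefSeq (GRCm38.p6) is shown to identify the family, with its seed (bases 2 to 8) in capitals.
mmu-let-7c-5p: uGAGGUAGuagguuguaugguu

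**Figure D4:**
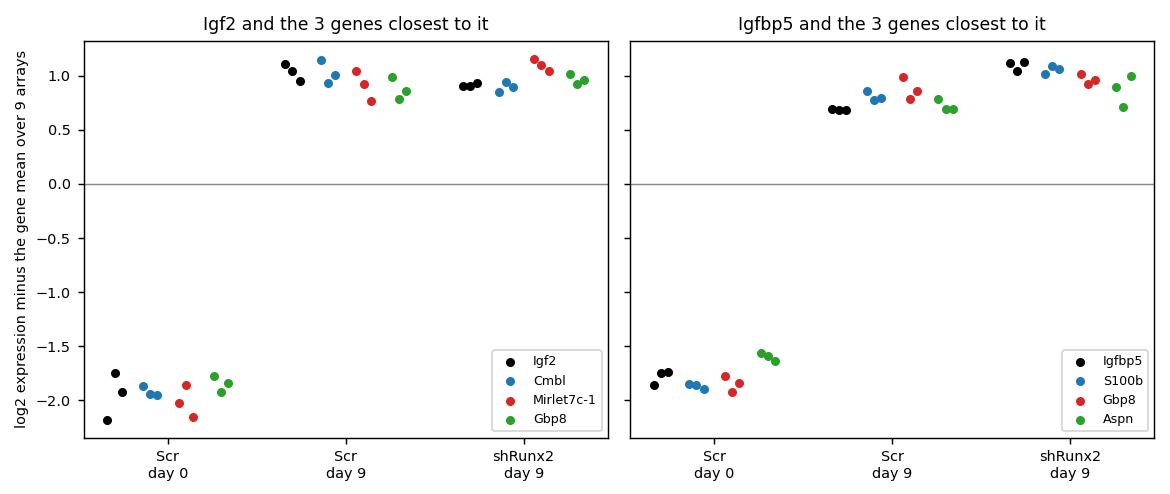
Log2 expression minus each gene's mean over 9 arrays (vertical axis) by group (horizontal axis: Scr at day 0, Scr at day 9, shRunx2 at day 9), each point being 1 array, for Igf2 (left) and Igfbp5 (right) with the 3 genes closest to each. All lie below their mean at day 0 and above it at day 9, and Igfbp5 and S100b lie higher in shRunx2 than in Scr cells. The genes were picked for closeness on these same arrays.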

How the data were processed

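The deposited values are log2 expression that the authors computed by RMA (background correction, quantile normalization and median polish) from 9 Affymetrix Mouse Gene ST arrays. The study names a further filter without details. Of 34760 probe sets, 21640 carried 1 gene symbol in the platform annotation, 1321 carried several and 11799 were unnamed here. Where a gene had more than 1 probe set the brightest was used, leaving 19937 genes. Precision is limited by the number of arrays.

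Group means of all 9 arrays were modelled in limma 3.58.1 (R 4.3.3, lmFit, eBayes, no covariate) with Benjamini-Hochberg adjustment over all genes. The fit was first run on simulated data with independent normal noise. Such noise lacks the equal values and shared deviations between arrays seen here, so that run cannot speak to them. Members and gene lists were chosen with earlier results of these data known. Named genes were all members, up to 4 genes of each other list with the smallest adjusted p in each of the first 2 comparisons, and the 3 genes closest in profile to Igf1, Igf2 and Igfbp5. Pappa, Pappa2 and Irs1 were outside this rule and were chosen after their values were seen. Pappa was chosen because its product cuts IGFBP4, and Pappa2 and Irs1 because they went the other way from Pappa and Irs2. Igfbp1 and Igfbpl1 were named to describe their list. Of 67 other list genes, 5 were not analysed here. Alternatives were other choices of probe set, a filter on dim genes, median centring, quantile normalization, a variance trend, array weights, a fit of only the groups compared, a replicate block and leaving out each array.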

Additional observations from a re-analysis of the deposited data

How the results depend on the processing

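Among 18 alternatives, none moved the count of called members by over 1.5 times between day 9 and day 0, in Scr or shRunx2 cells. Between shRunx2 and Scr cells at day 9, the count was 1 in place of 2 when every probe set was tested, where more tests are adjusted for, and it ranged from 1 to 2 when 1 array was left out. Igfbp5 was called in each of these and Igfbp7 was the gene lost. Direction reversed in 3 changes that passed under no alternative. Igfbp3 in shRunx2 against Scr cells at day 9 ran from -0.051 to 0.025 when 1 array was left out (0.025 without shRunx2 replicate 1). Igfbp3 at day 9 against day 0 in Scr cells ran from -0.11 to 0.010 (0.010 without Scr day 0 replicate 2). Igf1 in shRunx2 cells against day 0 ran from -0.022 to 0.013 (0.013 without Scr day 0 replicate 2) and was 0.063 with quantile normalization; the cause was not tested. With quantile normalization the call of Igf2r in shRunx2 cells against day 0 was lost (adjusted p = 0.0628). The filter on dim genes removed Igfbp3. Median centring moved the median change of all genes by at most -0.035. Same-numbered arrays of different groups did not all deviate together (correlations from -0.11 to 0.29, over 0.1 in 3 of 9 pairs), so the numbers were not taken to pair the samples. Pairs of different number ran from -0.29 to 0.12. Between Scr day 0 and Scr day 9, however, the same-numbered pairs 1, 2 and 3 stood at 0.294, 0.082 and 0.285. With the replicate number as a block, 2 members were called between shRunx2 and Scr cells at day 9 and 8 in each of the other comparisons, as without it. In shRunx2 against Scr cells at day 9, the other lists' counts also moved, the receptor adaptor genes that rose from 1 to up to 4 and the protease genes that rose from 0 to up to 3. Settings for genes outside the axis were added after seeing the data.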
